A study of Mus musculus with 6 samples.

Results

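The 10 genes described here encode the core of insulin and insulin-like growth factor (IGF) signalling in muscle: the ligand gene Igf1, the carrier genes Igfbp4, Igfbp5 and Igfbp6, the receptor genes Insr and Igf1r, the adaptor genes Irs1 and Irs2, and the kinase genes Akt1 and Akt2. They were found by matching Ensembl gene IDs to these symbols, and all 10 were present among the 41025 genes of each table. RNA was taken from the tibialis anterior, a shin muscle rich in fast fibres, in mice of the strain C57BL/6 at 8 weeks of age. There were 3 libraries labelled Mettl21e KO and 3 labelled wild type (WT), and no treatment is named for either. The sources used here do not state how the deletion was made, in which cells, or whether the libraries are of separate mice. A p-value here therefore sets the difference between labels against the library-to-library spread, which may be technical.

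Insulin and IGF-1 bind related receptor tyrosine kinases at the cell surface. The receptors phosphorylate the IRS adaptor proteins, which recruit phosphatidylinositol 3-kinase and so activate the AKT kinases. In muscle the pathway drives protein synthesis, restrains FOXO-dependent protein breakdown and moves the glucose transporter GLUT4 to the membrane. IGF-binding proteins hold IGFs outside the cell and limit or prolong their access to the receptor.

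The values are FPKM (fragments per kilobase of gene, scaled to the library's total), and library totals ran between 8476591 and 10856669 fragments. Mettl21e itself had 1.64, 1.45 and 1.88 FPKM in the libraries labelled KO, against 2.46, 0.309 and 1.23 FPKM in those labelled WT (log2 difference 0.29, limma adjusted p = 0.988). These values rest on 8 to 63 fragments, and without library 2 labelled WT the log2 difference was -0.07. The targeted transcript was thus not shown to be lower in the libraries labelled KO, and every direction given here is one between labels. Fast-fibre markers were abundant, with a summed level of 89464 to 92019 FPKM in libraries labelled KO and 88879 to 95981 FPKM in libraries labelled WT, although 1 of the 11 markers, Tnnc2, was at most at 1.45 FPKM in any library. The 12 fibroblast and matrix markers summed to 317, 329 and 405 FPKM in libraries 1, 2 and 3 labelled KO, against 305, 586 and 580 FPKM in those labelled WT. Library 1 labelled WT therefore stood with the libraries labelled KO in its matrix transcripts and apart from the other two labelled WT, and values that it moves most are also given without it. Where it is the lowest library labelled WT, leaving it out must lower the log2 difference, so that shift carries no weight by itself.

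None of the 10 genes passed the test between labels, although 9 were on average lower and 1 higher in the libraries labelled KO. All 10 were above 1 FPKM in every library and were tested, each with limma adjusted p = 0.988, and over the whole transcriptome 0 of 11383 tested genes passed (0%). Limma voom on the fragment counts recovered from the FPKM values also called 0 genes. At an unadjusted p under 0.05 limma counted 523 genes (4.59%) and voom 468 (4.11%). The 9 of 10 that were lower compare with 56.7% of all tested genes having a difference below 0, and the median log2 difference was -0.15 for the 10 genes and -0.02 for all tested genes. Library 3 labelled WT was the highest of the 6 for 7 of the 10 genes, and without it the median of the 10 was -0.07. Differences are labelled KO minus labelled WT in log2(FPKM + 1), a scale that makes changes of low genes look smaller than they are. The groups overlapped for all 10 genes, so 0 of 10 were apart, against 9.48% of all tested genes.

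**Figure D1:**
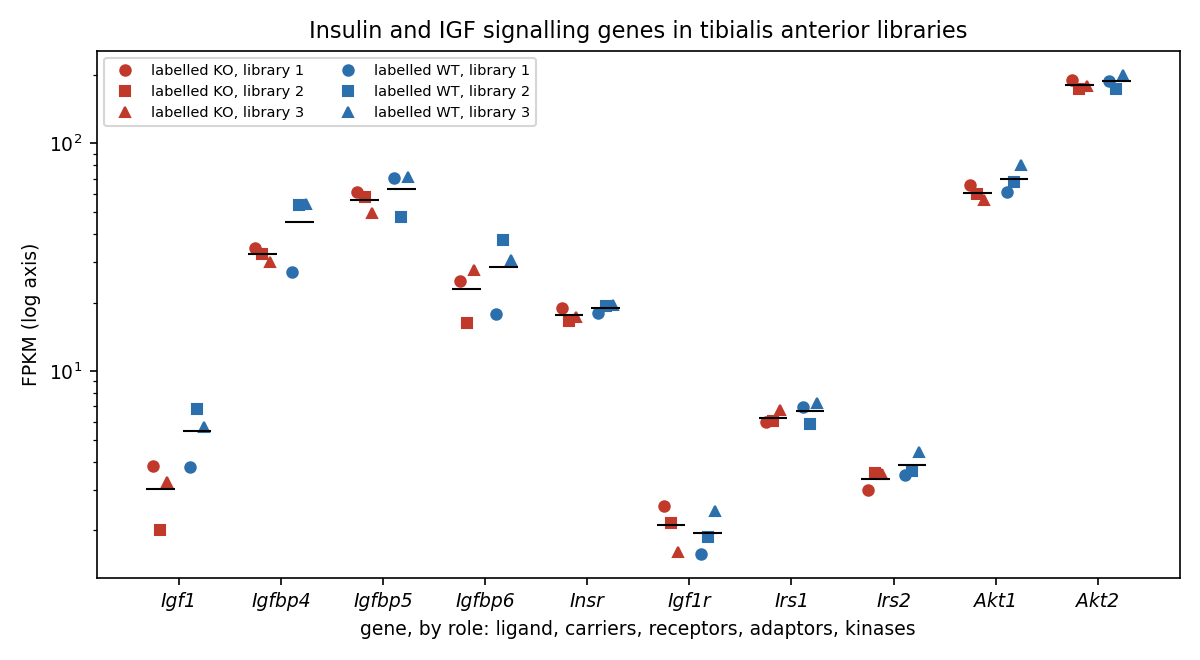
FPKM (log axis) of the 10 genes in each of the 6 libraries, labelled KO left and labelled WT right for each gene, with horizontal lines at the group means. Akt2 lies highest, between 172 and 200 FPKM, Igf1r lowest, between 1.57 and 2.55 FPKM, and the groups overlap for every gene.

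The promoters of the 3 genes that varied most between libraries (Igf1, Igfbp4 and Igfbp6) are shown. These genes had libraries 2 and 3 labelled WT as their highest, but their lowest library was not the same for all. Each is a RefSeq window of 300 bases in GRCm38.p6, from 250 bases before the start to 50 after it, written 5′ to 3′, with capitals marking the TATA-box letters TATAAA on either strand.
Igf1 (chr10:87860861-87861160, plus strand): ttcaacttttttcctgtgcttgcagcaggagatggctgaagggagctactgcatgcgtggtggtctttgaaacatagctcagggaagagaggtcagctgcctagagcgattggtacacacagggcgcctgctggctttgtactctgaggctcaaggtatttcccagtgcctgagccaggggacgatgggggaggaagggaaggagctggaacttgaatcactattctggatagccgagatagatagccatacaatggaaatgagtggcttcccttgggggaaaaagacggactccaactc
Igfbp4 (chr11:99040994-99041293, plus strand): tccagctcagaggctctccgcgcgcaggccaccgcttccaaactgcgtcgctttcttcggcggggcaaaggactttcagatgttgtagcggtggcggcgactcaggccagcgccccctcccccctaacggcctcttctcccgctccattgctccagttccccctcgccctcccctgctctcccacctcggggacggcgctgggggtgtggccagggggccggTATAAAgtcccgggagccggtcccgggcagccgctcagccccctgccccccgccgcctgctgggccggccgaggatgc
Igfbp6 (chr15:102143936-102144235, plus strand): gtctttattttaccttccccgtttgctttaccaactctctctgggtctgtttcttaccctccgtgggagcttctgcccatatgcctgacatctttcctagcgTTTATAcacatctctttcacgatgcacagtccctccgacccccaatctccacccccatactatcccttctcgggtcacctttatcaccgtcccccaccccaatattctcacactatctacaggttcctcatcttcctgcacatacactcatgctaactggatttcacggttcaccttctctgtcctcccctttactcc
The letters TATAAA were found in the windows of Igfbp4 and Igfbp6, on the opposite strand (TTTATA) in Igfbp6, and in 13.6% of all 32851 promoter windows of this length. The Igfbp6 window ends at 102144235, before the GENCODE start of the gene at 102144362, and its match lies further from the RefSeq start than that of Igfbp4. The letters TATAAA were not in the Igf1 window, which is set at a RefSeq start inside the gene as GENCODE annotates it. The GC-box letters GGGCGG, searched on both strands, were in none of the 3 windows and in 35.7% of all windows. RefSeq windows were matched for 9 of the 10 genes, and Insr was not matched. A match of letters is a description and not a binding site.

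Igf1, the growth factor made by liver and by muscle itself, had the largest difference of the 10. The gene (ENSMUSG00000020053, protein coding) lies on the plus strand of chromosome 10 from 87858265 to 87937042 in mm10. Igf1 had 3.83, 2.001 and 3.24 FPKM in libraries 1, 2 and 3 labelled KO, against 3.79, 6.85 and 5.70 FPKM in those labelled WT. Library 1 labelled WT lay just below library 1 labelled KO, so the groups overlapped, while libraries 2 and 3 labelled WT were the highest of the 6. The group means were 3.02 ± 0.933 FPKM under the KO label and 5.45 ± 1.55 FPKM under the WT label (SD, n = 3 each), a ratio of 0.555. The log2 difference was -0.68 (SE 0.23, 95% interval -1.202 to -0.15), with an unadjusted limma p of 0.0172 and an adjusted p of 0.988. Igf1 was the 1 gene of 10 at an unadjusted p under 0.05 and lower, where 3.31% of all tested genes were. Without library 1 labelled WT the log2 difference was -0.88 (limma adjusted p = 0.200), and over all 6 omissions of 1 library it ran from -0.48 to -0.88 (adjusted p from 0.200 to 1). In the fit without library 1 labelled WT, 1356 of 11383 tested genes were at an unadjusted limma p under 0.05, against 523 with all 6 libraries.

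Few fragments stood behind Igf1. They numbered 73, 41 and 54 in the libraries labelled KO, against 80, 146 and 99 in those labelled WT. The exact 95% Poisson intervals, which cover counting error only, were 29.4 to 55.6 fragments for the lowest library and 123 to 172 for the highest. The span between these 2 libraries was thus wider than counting error. The span of a gene on the other strand, Igf1os, overlaps an exon of Igf1, and whether its own exons do was not examined. Since no source used here states the strand setting, the value of Igf1 is uncertain to that extent.

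Igfbp4 encodes a carrier that keeps IGFs from their receptor until a protease cleaves it. The gene (ENSMUSG00000017493) is on the plus strand of chromosome 11 from 99041244 to 99054392. Igfbp4 had 34.7, 32.8 and 30.2 FPKM in the libraries labelled KO, against 27.4, 53.5 and 54.3 FPKM in those labelled WT. The lowest value of all 6 belonged to library 1 labelled WT, and libraries 2 and 3 labelled WT stood well above the rest. The log2 difference was -0.39 (SE 0.23, 95% interval -0.93 to 0.14), and the group means were 32.6 ± 2.27 FPKM under the KO label and 45.0 ± 15.3 FPKM under the WT label (SD, n = 3 each). Without library 1 labelled WT it was -0.71 (limma adjusted p = 0.0754), and without library 2 or library 3 labelled WT it was -0.24 or -0.23. The value of 0.0754 was the smallest of the 10 genes over 15 settings of the fit, in which their adjusted p ran up to 1. In the fit that gave it, 1356 of 11383 tested genes were at an unadjusted limma p under 0.05, against 523 with all 6 libraries. Limma adjusted p was lower there for other members too, such as 0.365 for Akt1.

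Igfbp6, whose product binds IGF-2 in preference to IGF-1, showed a similar spread. The gene (ENSMUSG00000023046) lies on the plus strand of chromosome 15 from 102144362 to 102149511. Igfbp6 had 24.9, 16.3 and 27.8 FPKM in the libraries labelled KO, against 17.7, 37.5 and 30.8 FPKM in those labelled WT. Library 2 labelled KO and library 1 labelled WT were lowest, and libraries 2 and 3 labelled WT were highest. The log2 difference was -0.28 (SE 0.28, 95% interval -0.91 to 0.35). It was -0.58 without library 1 labelled WT and -0.06 without library 2 labelled WT or without library 2 labelled KO.

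Igfbp5, whose product also binds extracellular matrix, had another pattern than the other carriers. The gene (ENSMUSG00000026185) is found on chromosome 1, minus strand, from 72857932 to 72874884. Igfbp5 had 61.3, 57.9 and 49.3 FPKM in the libraries labelled KO, against 70.2, 47.4 and 71.3 FPKM in those labelled WT. Library 2 labelled WT, the highest for Igf1 and Igfbp6, was the lowest of the 6 for Igfbp5, and library 1 labelled WT was among the highest. The log2 difference was -0.15 (SE 0.16, 95% interval -0.51 to 0.22). It was -0.33 without library 2 labelled WT, and -0.05 without library 3 labelled WT and -0.06 without library 1 labelled WT or library 3 labelled KO.

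Igf1, Igfbp4 and Igfbp6 had their 2 highest libraries in common, libraries 2 and 3 labelled WT, which were also the 2 with the most fibroblast and matrix transcripts. The same 2 libraries were the highest for Insr, Irs2 and Akt1, so this order was not particular to the ligand and carriers. As a measure of likeness, the mean absolute difference between 2 genes' deviations from their own 6-library averages was 0.200 log2 units for Igf1 and Igfbp6, 0.214 for Igfbp4 and Igfbp6 and 0.217 for Igf1 and Igfbp4. The same measure was 0.376 between Igf1 and Igfbp5, 0.354 between Igfbp4 and Igfbp5, and 0.440 between Igfbp5 and Igfbp6. The likeness was not limited to these 3 genes: Akt1 lay at 0.220 from Igfbp4 and 0.243 from Igf1, although at 0.289 from Igfbp6. Of the 45 pairs among the 10 genes, 21 were nearer than 0.200, none of them with Igf1, Igfbp4 or Igfbp6. The measure is not scaled to spread, so genes that vary little lie near each other. That count therefore cannot show whether the likeness is particular. All 12 fibroblast and matrix markers were on average lower in the libraries labelled KO (median log2 difference -0.38, 0 past the test), none of them at 0 in any library. Tendon markers summed to 40.3, 60.8 and 62.7 FPKM in the libraries labelled KO, against 43.5, 113 and 81.3 FPKM in those labelled WT, and macrophage and leukocyte markers to 51.3, 43.8 and 67.9 FPKM under the KO label, against 51.8, 124 and 227 FPKM under the WT label. Of the leukocyte markers S100a8 was at 0 in 1 library, and all 8 that were tested were on average lower (0 past the test). In library 3 labelled WT, S100a8 (70.8 FPKM) and S100a9 (67.1 FPKM) made up most of that list's sum. Adipocyte markers summed to 95.7, 91.5 and 104 FPKM in the libraries labelled KO, against 103, 132 and 150.04 FPKM in those labelled WT. Most of each adipocyte sum is Fabp4. Endothelial and mural markers summed to 474, 466 and 445 FPKM under the KO label, against 359, 540 and 547 FPKM under the WT label. In each of these lists libraries 2 and 3 labelled WT were the highest, as they were for Igf1, Igfbp4, Igfbp6, Insr, Irs2 and Akt1. Satellite cell markers, at 49.5, 41.5 and 32.3 FPKM under the KO label, against 49.3, 40.0 and 35.1 FPKM under the WT label, had no such order. All 8 markers of the slow-fibre list were on average lower in the libraries labelled KO (median log2 difference -1.11, 0 past the test). The groups of 3 of them were apart and lower, where 5.64% of all tested genes were. So were those of 2 fibroblast and matrix markers, 2 adipocyte markers and 1 leukocyte marker, while 1 fast-fibre marker was apart and higher. Most of the slow-fibre list's sum is Myh2, the myosin gene of fast IIa fibres. Without it the sum was 322, 369.9 and 254 FPKM in the libraries labelled KO, against 528, 571 and 285 FPKM in those labelled WT. In this sum, most of which is Myl3, it was library 3 labelled WT that lay among the libraries labelled KO. The sum thus orders the libraries otherwise than Igf1, Igfbp4 and Igfbp6 do. For the 3 slow-fibre markers whose groups were apart (Myh7, Myl2 and Atp2a2), library 3 labelled WT lay above every library labelled KO. The part of these cell types in the ligand and carrier values was not tested, and in bulk tissue fewer cells of a type and less RNA per cell cannot be told apart.

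**Figure D2:**
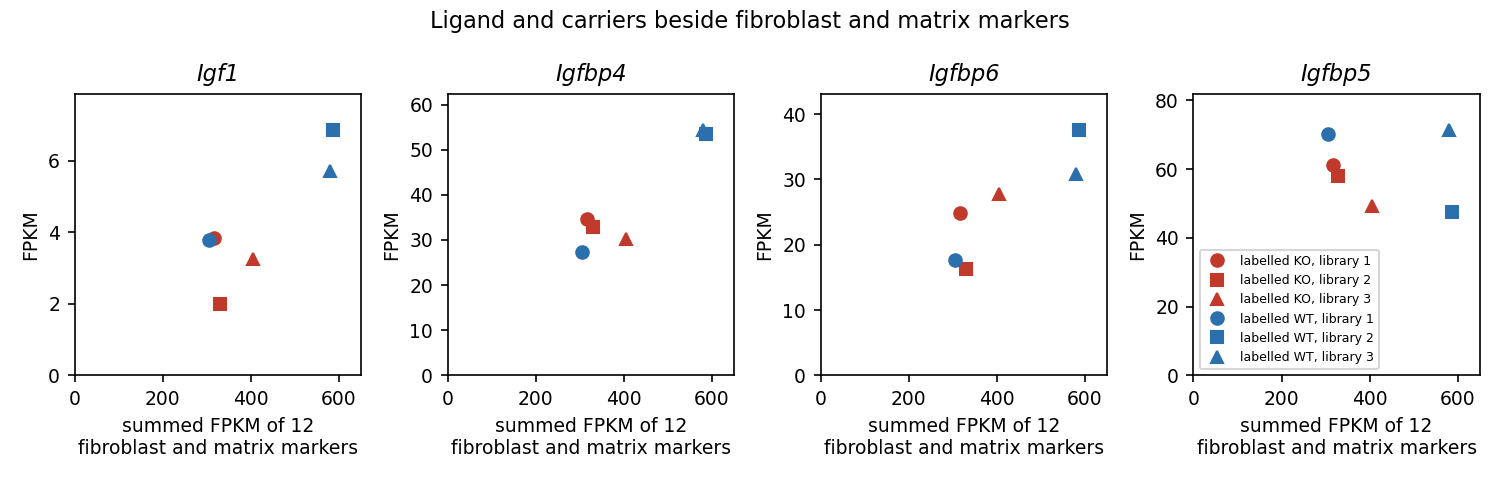
FPKM of Igf1, Igfbp4, Igfbp6 and Igfbp5 in each library (vertical axes) against the summed FPKM of the 12 fibroblast and matrix markers (horizontal axes), with red for libraries labelled KO and blue for those labelled WT. Libraries 2 and 3 labelled WT lie at 586 and 580 FPKM of markers and are highest for Igf1, Igfbp4 and Igfbp6, whereas library 1 labelled WT, at 305 FPKM, lies beside the libraries labelled KO.

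Other genes came close to the most variable members. The nearest of the 11383 tested genes to Igf1 were Cenpa, a centromere histone gene (0.119 log2 units over the 6 libraries), F3, the tissue factor gene (0.120), and Ccdc80, a matrix protein gene (0.120). For Igfbp6 they were Tmem119 (0.0762), the chemerin receptor gene Cmklr1 (0.0775) and the matrix gene Fbln1 (0.0825). Cenpa had 1.98, 0.720 and 1.48 FPKM in the libraries labelled KO, against 2.64, 3.31 and 3.30 FPKM in those labelled WT, on 9 to 43 fragments. For Cenpa library 1 labelled WT thus lay above every library labelled KO, unlike for Igf1. For F3, Tmem119 and Cmklr1 library 1 labelled WT lay among the libraries labelled KO, and libraries 2 and 3 labelled WT were highest. Ccdc80 had 9.39, 6.60 and 8.80 FPKM in the libraries labelled KO, against 7.35, 15.6 and 12.9 FPKM in those labelled WT. Fbln1 was at 2.59, 1.59 and 2.51 FPKM under the KO label, against 1.45, 4.45 and 3.64 FPKM under the WT label.

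The receptor genes differed in level from each other, and neither passed the test between labels. Insr, the insulin receptor gene (ENSMUSG00000005534, minus strand of chromosome 8, 3122061 to 3279617), had 19.0, 16.7 and 17.3 FPKM in the libraries labelled KO, against 18.01, 19.3 and 19.4 FPKM in those labelled WT. Its values stayed within a narrow band, with a highest value 1.17 times the lowest. The log2 difference was -0.09 (SE 0.09, 95% interval -0.30 to 0.11), and the genes annotated on its other strand touch no exon of it. Igf1r, the IGF-1 receptor gene (ENSMUSG00000005533, plus strand of chromosome 7, 67952827 to 68233668), was at 2.55, 2.16 and 1.60 FPKM under the KO label, against 1.57, 1.87 and 2.42 FPKM under the WT label. The groups covered almost the same range, and Igf1r was the 1 gene whose mean was higher in the libraries labelled KO. Its log2 difference was 0.07 (SE 0.17, 95% interval -0.33 to 0.47), and it turned to -0.033 without library 1 labelled KO and to -0.025 without library 1 labelled WT.

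Insr stood above Igf1r in every library. The ratio of Insr to Igf1r in FPKM was 7.46, 7.73 and 10.8 in the libraries labelled KO, against 11.4, 10.3 and 8.03 in those labelled WT. On the log2 scale the ratio differed by -0.20 between labels (exact two-sided permutation test, p = 0.4, n = 3 each). Leaving out 1 library gave between -0.37 without library 3 labelled KO and -0.09 without library 1 labelled WT. With 3 libraries against 3 the smallest p that this test allows is 0.1.

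The adaptor genes Irs1 and Irs2 encode the docking proteins between receptor and phosphatidylinositol 3-kinase. Irs1 (ENSMUSG00000055980, minus strand of chromosome 1, 82233101 to 82291416) had 5.99, 6.02 and 6.73 FPKM in the libraries labelled KO, against 6.93, 5.84 and 7.22 FPKM in those labelled WT (log2 difference -0.08, SE 0.12, 95% interval -0.34 to 0.19). Irs2, a gene that FOXO factors are known to induce (ENSMUSG00000038894, minus strand of chromosome 8, 10984681 to 11008458), was at 2.99, 3.57 and 3.55 FPKM under the KO label, against 3.51, 3.64 and 4.41 FPKM under the WT label (log2 difference -0.15, SE 0.13, 95% interval -0.45 to 0.15). For both genes library 3 labelled WT was the highest, and the other values of the 2 labels interleaved. The log2 ratio of Irs2 to Irs1 was -0.89 ± 0.128 in libraries labelled KO and -0.79 ± 0.164 in those labelled WT (SD, n = 3 each; exact two-sided permutation test, p = 0.4). The difference of -0.10 ran from -0.20 without library 1 labelled WT to -0.05 without library 1 labelled KO or library 2 labelled WT. The span of Gm9747 overlaps an exon of Irs1 and that of 9530052E02Rik an exon of Irs2, both on the other strand. Whether their own exons do was not examined, so the values of Irs1 and Irs2 are uncertain to that extent.

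The AKT kinase genes were the most abundant downstream members. Akt2, the form needed for insulin-stimulated glucose uptake (ENSMUSG00000004056, plus strand of chromosome 7, 27591552 to 27640826), had 190, 172 and 179 FPKM in the libraries labelled KO, against 188, 173 and 200 FPKM in those labelled WT. It varied least of the 10 genes, with a coefficient of variation of 5.91% over the 6 libraries, and its log2 difference was -0.05 (SE 0.08, 95% interval -0.24 to 0.14). Akt1, the form tied to growth (ENSMUSG00000001729, minus strand of chromosome 12, 112653821 to 112674884), was at 65.9, 59.7 and 56.5 FPKM under the KO label, against 61.3, 67.8 and 80.3 FPKM under the WT label. Library 3 labelled WT was the highest and library 3 labelled KO the lowest for Akt1, and the log2 difference was -0.19 (SE 0.11, 95% interval -0.45 to 0.07). It was -0.09 without library 3 labelled WT. The values of library 3 labelled WT were thus the highest for both kinases.

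The ratio of Akt2 to Akt1 in FPKM was 2.89, 2.89 and 3.17 in the libraries labelled KO, against 3.07, 2.56 and 2.49 in those labelled WT. Library 1 labelled WT fell among the values of the libraries labelled KO, and the other 2 labelled WT were lower than all of these. The log2 ratio differed by 0.14 between labels (exact two-sided permutation test, p = 0.3, n = 3 each). Leaving out 1 library gave between 0.09 without library 3 labelled WT (exact permutation p = 0.6) and 0.24 without library 1 labelled WT (exact permutation p = 0.1, the smallest that 3 libraries against 2 allow).

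**Figure D3:**
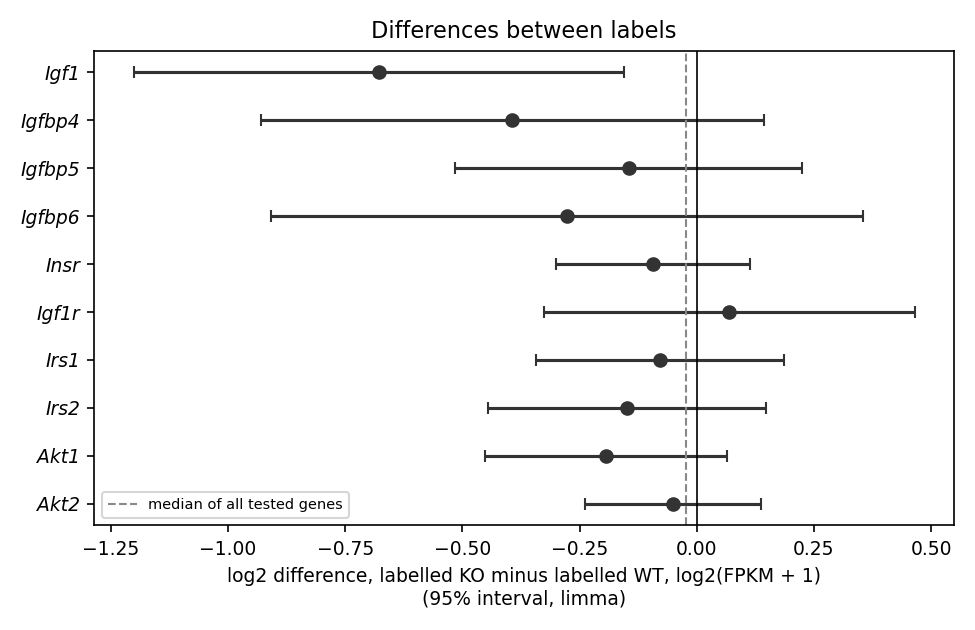
Log2 difference on the log2(FPKM + 1) scale, labelled KO minus labelled WT, of each of the 10 genes with its 95% interval from limma; the dashed line is the median of all tested genes at -0.02. The interval of Igf1 (-1.202 to -0.15) is the 1 that does not reach 0, and its adjusted p is 0.988.

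Ordered by mean FPKM over the 6 libraries, the genes ran from Akt2 (184 ± 10.9) through Akt1 (65.2 ± 8.44), Igfbp5 (59.5 ± 10.1), Igfbp4 (38.8 ± 11.9), Igfbp6 (25.8 ± 8.04), Insr (18.3 ± 1.13), Irs1 (6.46 ± 0.578), Igf1 (4.23 ± 1.75) and Irs2 (3.61 ± 0.456) to Igf1r (2.03 ± 0.412; SD, n = 6). The ranges of neighbours were apart between Akt2 and Akt1, between Insr and Irs1, and between Irs2 and Igf1r. The other neighbours overlapped, although Igfbp4 was above Igfbp6 in 6 of 6 libraries. The order depends on the gene length behind the FPKM, which equalled the annotated exon union for Irs1 and Igfbp6 alone. For Akt1 it was 965 bases against 4098 in the exon union, and for Igf1 1964 against 9904. With exon unions as lengths, an alternative chosen after seeing the data, Igfbp5 came first (51.0 ± 8.65), ahead of Akt2 (39.4 ± 2.33), and Igf1 (0.840 ± 0.347) stood below Irs2 (2.30 ± 0.290). A ratio of FPKM of 1 gene between libraries does not depend on that length.

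**Figure D4:**
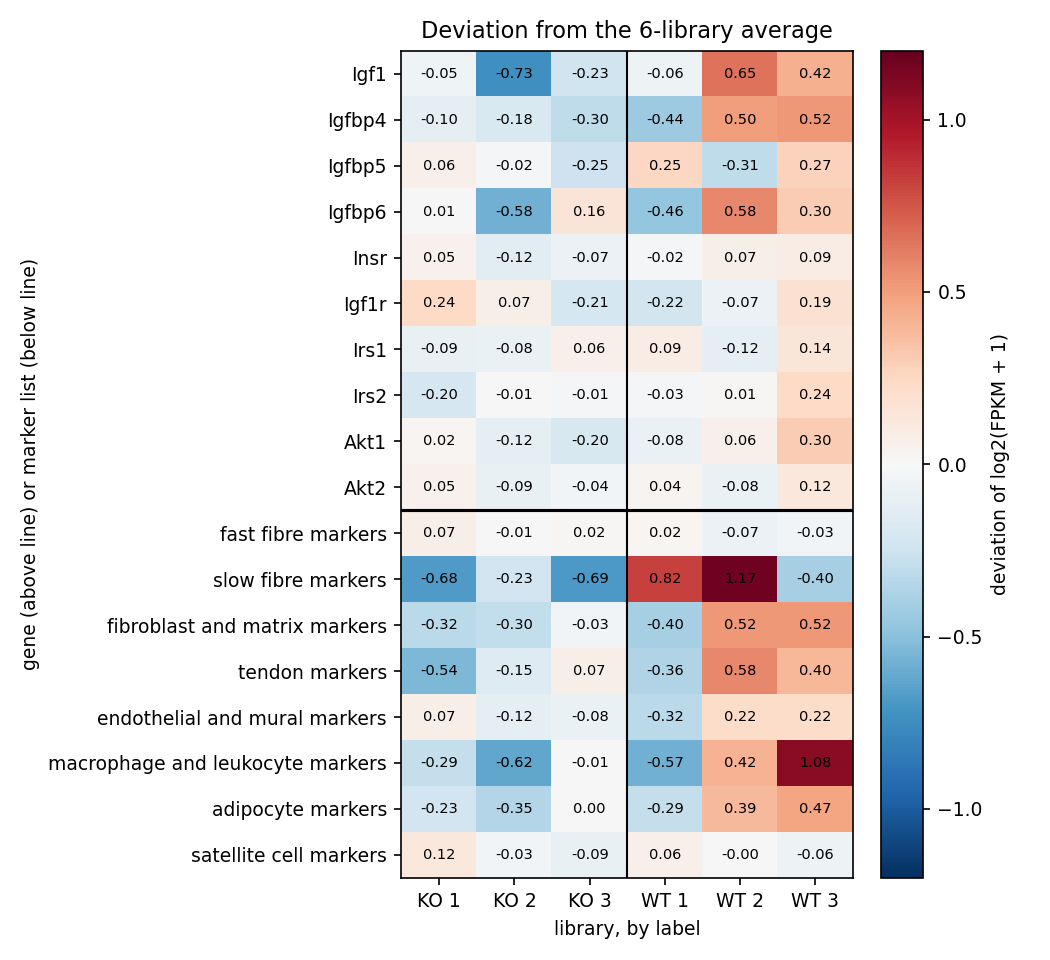
Deviation of log2(FPKM + 1) from the 6-library average for the 10 genes (above the line) and, as the mean over their genes, for 8 marker lists (below it), with libraries labelled KO left and those labelled WT right. Igf1, Igfbp4 and Igfbp6 reach 0.30 to 0.65 in libraries 2 and 3 labelled WT, where the fibroblast and matrix list is at 0.52 in each, and Insr and Akt2 stay between -0.12 and 0.12 in every library.

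The wider pathway was described with 5 lists of 90 further genes, of which 78 had a mean of at least 1 FPKM and were tested. None passed in either direction, 30 had a higher and 48 a lower mean under the KO label, and the median log2 difference was -0.01, against -0.02 for all tested genes. At an unadjusted p under 0.05 there were 2 higher (Igfbp3 and Klf15) and 1 lower (Igfals), where 1.28% of all tested genes were higher and 3.31% lower. These 3 genes were chosen for mention once their values were known. The groups were apart for 7 of the 78 genes (8.97%), near the 9.48% of all tested genes: Igfbp3, Klf15, Inpp5k and Phlpp2 were higher and Igfals, Ptprf and Bad lower.

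Among ligands and carriers, 7 of 16 genes were tested, 1 higher and 6 lower (median log2 difference -0.17). The median was -0.27 without library 1 labelled WT, -0.08 without library 3 labelled WT and -0.03 with no filter on low genes. Igfbp3, the main IGF carrier of blood, had 7.43, 12.8 and 8.00 FPKM in the libraries labelled KO, against 5.95, 6.07 and 5.70 FPKM in those labelled WT. All 3 libraries labelled KO lay above those labelled WT, as for 3.84% of all tested genes, with a log2 difference of 0.56 (SE 0.18) and a limma adjusted p of 0.988. The difference was 0.34 without library 2 labelled KO. Igfals, the gene of the subunit that joins Igfbp3 in the circulating complex, was at 1.02, 0.908 and 0.782 FPKM under the KO label, against 1.94, 1.61 and 1.07 FPKM under the WT label (log2 difference -0.40, adjusted p = 0.988). Igfals rests on 14 to 44 fragments, and its groups were apart in the other direction, as for 5.64% of all tested genes. The 3 most abundant tested genes of the list were Igfbp7 (56.0 ± 3.57 FPKM in libraries labelled KO and 66.6 ± 16.0 FPKM in those labelled WT), the scavenger receptor gene Lrp1 (34.2 ± 3.71 FPKM under the KO label and 45.9 ± 21.1 FPKM under the WT label) and the IGF-2 clearance receptor gene Igf2r (38.6 ± 1.06 FPKM under the KO label and 40.2 ± 6.58 FPKM under the WT label). For these 3 genes library 1 labelled WT was the lowest of the 6. The insulin genes were at most at 0.116 FPKM, and Igfbp1 was listed at 0 in all 6 libraries.

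Adaptors and receptor regulators had 17 of 20 genes tested, 4 higher and 13 lower (median -0.04). Cav1, the caveolin gene, was at 202 ± 9.66 FPKM in libraries labelled KO and 208 ± 35.9 FPKM in those labelled WT. Grb14, an inhibitor of the insulin receptor, was at 31.2 ± 1.42 FPKM under the KO label and 31.7 ± 0.979 FPKM under the WT label, and the adaptor gene Grb2 at 31.0 ± 1.37 FPKM under the KO label and 31.5 ± 2.40 FPKM under the WT label. For all 3 the mean difference was smaller than the spread within either label.

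The phosphatidylinositol 3-kinase and AKT list had all 21 genes tested, 8 higher and 13 lower (median -0.01). Its most abundant genes were Ppp2r1a, a subunit of the phosphatase that acts on AKT (134 ± 8.75 FPKM in libraries labelled KO and 134 ± 5.18 FPKM in those labelled WT), the lipid phosphatase gene Inppl1 (43.4 ± 2.44 FPKM under the KO label and 42.5 ± 3.27 FPKM under the WT label) and the phosphatase catalytic subunit gene Ppp2ca (35.1 ± 2.63 FPKM under the KO label and 38.4 ± 3.96 FPKM under the WT label). Log2 differences over this list ran from -0.24 to 0.13.

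AKT substrates and glucose uptake genes had all 21 tested, 8 higher and 13 lower (median -0.01), with log2 differences from -0.23 to 0.13. Slc2a4, the gene of the insulin-responsive glucose transporter GLUT4, was at 459 ± 60.6 FPKM in libraries labelled KO and 463 ± 21.7 FPKM in those labelled WT. The glycogen synthase gene Gys1 was at 282 ± 42.8 FPKM under the KO label and 300.0 ± 50.3 FPKM under the WT label, and the hexokinase gene Hk2 at 228 ± 39.5 FPKM under the KO label and 226 ± 22.2 FPKM under the WT label. No label stood apart for these genes.

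Genes known to respond to FOXO factors or to IGF had all 12 tested, 9 higher and 3 lower (median 0.06). Klf15, a metabolic transcription factor gene, had 22.8, 28.0 and 23.9 FPKM in the libraries labelled KO, against 22.4, 15.2 and 19.9 FPKM in those labelled WT (log2 difference 0.37, adjusted p = 0.988), and the groups were apart, as for 3.84% of all tested genes. The mitophagy receptor gene Bnip3 was at 242 ± 18.3 FPKM under the KO label and 276 ± 25.9 FPKM under the WT label, and the glucose-responsive gene Txnip at 254 ± 111 FPKM under the KO label and 194 ± 49.7 FPKM under the WT label. Pdk4, a kinase gene that is raised by fasting and low insulin, varied widely, at 228, 98.7 and 132 FPKM in the libraries labelled KO, against 369, 178 and 37.4 FPKM in those labelled WT. Library 1 labelled WT was the highest and library 3 labelled WT the lowest for Pdk4. Without library 1 labelled WT the median of the list was 0.19.

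**Figure D5:**
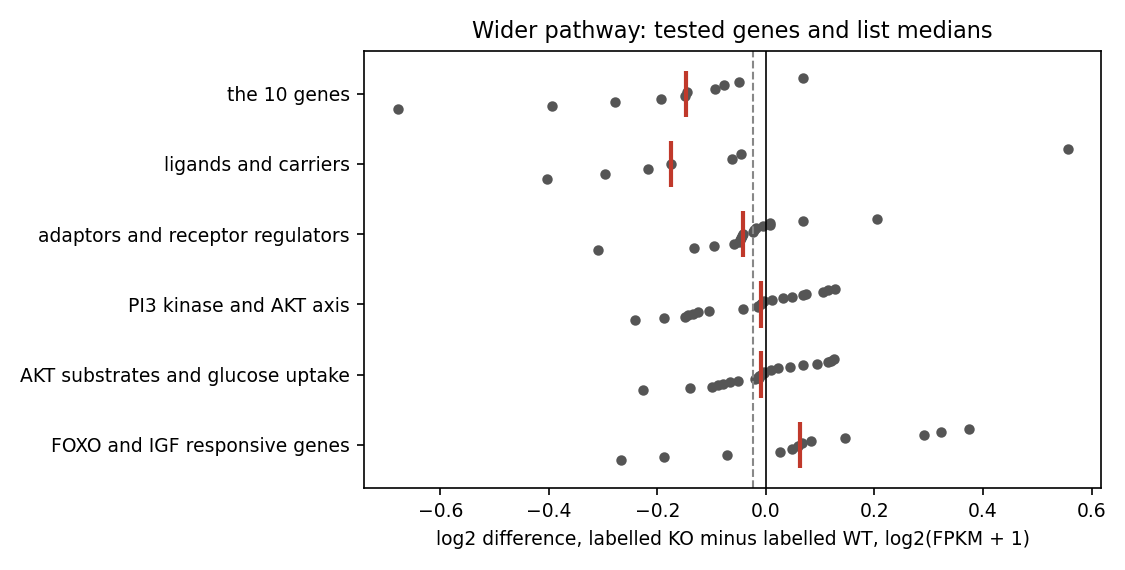
Log2 difference on the log2(FPKM + 1) scale, labelled KO minus labelled WT, of each tested gene (points) in the group of 10 and in 5 wider pathway lists, with list medians as red bars and the median of all tested genes as a dashed line. Medians run from -0.17 for ligands and carriers (-0.03 with no filter on low genes) to 0.06 for FOXO and IGF responsive genes, and 0 genes passed the test.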

How the data were processed

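The values are FPKM per gene that the authors deposited, 1 table per library; the tools named are Cufflinks 2.2.1 and TopHat2 2.1.1 and the build is mm10, per the submitters' processing notes. The sources used here do not state their roles, the annotation release or the strand setting. Sample titles gave the groups and replicate numbers. Symbols were found for 40452 of 41025 IDs, and positions came from GENCODE M21 on the same assembly.

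Differences were tested in log2(FPKM + 1) by limma 3.58.1 under R 4.3.3, using its mean-variance trend, in the 11383 genes that averaged 1 FPKM or more, with Benjamini-Hochberg adjustment over all of them and a threshold of 0.05. The fit was tested on simulated data. Ratios were compared by exact permutation. For 100% of genes above 0, 1 whole gene length made the values whole fragments in every library (tolerance 0.002), which gave the library totals and fragment counts; genes held 99.7% of each total, and 1 fragment on 1 kb was worth 0.0921 to 0.118 FPKM. Every pair of libraries differed by more than sampling noise: the smallest chi-square per degree of freedom was 7.64.

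The 10 genes and all lists were chosen with earlier results of these data known. Named genes were the 10, Mettl21e, the 3 most abundant tested genes of each list and the 3 nearest tested genes to each of the 2 most variable members. Alternatives were other scalings, a pseudocount of 0.1, other filters, no trend, a replicate block, voom, leaving out each library and, added after seeing the data, exon-union lengths. The rule for named genes excepts Igfbp3, Igfals, Klf15, Inpp5k, Phlpp2, Ptprf, Bad, Myh2, Myh7, Myl2, Myl3, Atp2a2 and Tnnc2, named for their values. The markers S100a8, S100a9 and Fabp4 were also named for their values. Python 3.11.15 with numpy 2.4.6 and pandas 2.3.3 was used for tables.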

Additional observations from a re-analysis of the deposited data

How the results depend on the processing

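No alternative brought any of the 10 genes, or any of the 78 wider pathway genes, past the test. Directions held for 9 of the 10 genes under the alternatives in which they were tested. Igf1r reversed in 2, at -0.033 without replicate 1 labelled KO and -0.025 without replicate 1 labelled WT, over a range of -0.033 to 0.19 when 1 library was left out. Mettl21e was at -0.068 without replicate 2 labelled WT, over a range of -0.068 to 0.632. With the same omissions the number of genes past the test over the transcriptome ran from 0 to 3 (1 without library 3 labelled KO, 1 without library 1 labelled WT and 3 without library 3 labelled WT), and the number of genes whose groups did not overlap from 1808 to 3450, against 1079 with all 6 libraries; fewer libraries leave more genes without overlap. That number was 1797 with no filter and 705 with a mean of at least 5 FPKM, which test more and fewer genes. At that stricter filter Igf1, Igf1r and Irs2 were not tested. Median subtraction moved the median of all genes to 0.02. Replicate numbers gave no sign of pairing: deviations of same-numbered libraries correlated at 0.0236, -0.0408 and 0.0232 across genes, and not every library correlated best with its own number. The sample titles do not say whether the numbers pair libraries, and these correlations cannot exclude it. With the replicate block 0 genes passed, with 472 at an unadjusted p under 0.05 against 523 without it, and the exact p of the ratios were 0.5 for Akt2 to Akt1, 0.75 for Insr to Igf1r and 0.25 for Irs2 to Irs1, where 0.25 is the smallest p that 3 pairs allow. Among the 10 genes depth limits Igf1 and Igf1r most, with 41 to 146 and 61 to 111 fragments.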
